A study of Bos taurus with 24 samples.

Results

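CD14 and TLR4 encode 2 components of the receptor through which macrophages sense lipopolysaccharide (LPS), the outer membrane glycolipid of Gram-negative bacteria such as Escherichia coli. They were taken by symbol from the gene name columns of the study's tables, which gave 2 genes of the 24616 listed, ENSBTAG00000015032 for CD14 and ENSBTAG00000006240 for TLR4. LPS is handed by LBP to CD14, which is held at the cell surface by a lipid anchor or shed in soluble form. CD14 passes it on to the complex of TLR4 with its partner MD-2, the product of LY96. TLR4 then signals through MYD88 with TIRAP at the plasma membrane and, once CD14 has helped to bring the receptor into endosomes, through TICAM1 with TICAM2, the route to type I interferon. In blood, CD14 is the classical surface marker of monocytes.

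The cells were monocyte-derived macrophages (MDMs) of 6 lactating female Holstein cows, 3 of a high and 3 of a low responder group, classed by how much nitric oxide their MDMs had made in vitro after E. coli. Monocytes that adhered from blood mononuclear cells were grown for 6 days in serum-free medium with 5 ng/ml recombinant bovine GM-CSF, so all 8 conditions share this cytokine. Per cow and time point, 1 well stayed untreated and 1 received E. coli inactivated with paraformaldehyde at a multiplicity of infection of 5. mRNA was sequenced from 3 control and 3 exposed wells per phenotype at 3 hours and at 18 hours, 24 libraries in all. Genotypes and ages of the cows are not given in the sources used here. Each phenotype is 3 outbred animals of 1 herd, and what differs between phenotypes cannot be told apart from what differs between these animals. The cells were not sorted on CD14, although the study stained the protein to describe them.

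Libraries held between 6297190 and 20936554 expected counts, the estimated read pairs per gene that were deposited. CD14 had between 1147 and 9208 counts and TLR4 between 1369 and 5312, and each gene had 1 transcript and an estimation error of 0 counts, so that RSEM divided none of their reads with another gene. Of the 38 marker genes listed for macrophages and for other blood cells, 7 could be matched to an identifier. The 5 macrophage and monocyte markers, CD68, AIF1, CSF2RA, MSR1 and FCER1G, summed to between 3381 and 6404 TPM, the length-corrected share of all transcripts in a library. CD79A of B cells and PRF1 of NK cells, the other 2, stayed below 3 TPM each, and none of the T cell, neutrophil, dendritic cell or platelet markers could be looked up.

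CD14 was the more abundant receptor transcript in 23 of 24 libraries. On the TPM scale, CD14 ranged from 41.0 to 321 (median 163) and TLR4 from 53.0 to 113 (median 78.8). By TPM, CD14 ranked between 447 and 3222 and TLR4 between 1309 and 2387 among the genes of a library. The 1 library with less CD14 than TLR4 was an exposed well of a low responder at 18 hours, at a ratio of 0.603.

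Levels of 1 gene across wells were compared as CPM, counts scaled to the size of the library, with TMM normalization, which scales each library so that most genes stay level. In the high responders at 3 hours, CD14 was at 334, 469 and 567 CPM in the control wells and at 366, 376 and 529.5 CPM in the exposed wells. In the low responders at 3 hours, the control wells had 189, 369 and 366 CPM and the exposed wells 166, 283 and 405 CPM. Control and exposed wells overlapped in both phenotypes. At 18 hours, the high responders had 369, 434 and 545 CPM in the control wells and 289, 382 and 341 CPM in the exposed wells. In the low responders at 18 hours, the control wells had 372, 178 and 353 CPM and the exposed wells 173, 76.7 and 194 CPM. All 3 exposed wells of the low responders were below all 3 exposed wells of the high responders, with a gap between 194 and 289 CPM, a separation with the high responders above that 12.2% of 11905 genes also showed.

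TLR4 moved over a narrower range. At 3 hours, TLR4 was at 257, 224 and 154 CPM in the control wells of the high responders and at 344, 257 and 178 CPM in their exposed wells. In the low responders at 3 hours it was at 171, 271 and 272 CPM in the control wells and at 212, 264 and 251 CPM in the exposed wells. Each exposed well of a high responder was above the control well of the same cow, whereas the low responders were mixed. At 18 hours, the high responders had 215, 181 and 252 CPM in the control wells and 232, 229 and 282 CPM in the exposed wells. In the low responders at 18 hours, the control wells had 238, 219 and 223 CPM and the exposed wells 207, 172 and 199 CPM. Among the low responders at 18 hours, no exposed well reached the lowest control well. The share of all genes that separate in this way was not counted, so the separation describes these wells only. By a different criterion, the test given below, 25.2% of 11759 genes passed there with a lower level.

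**Figure D1:**
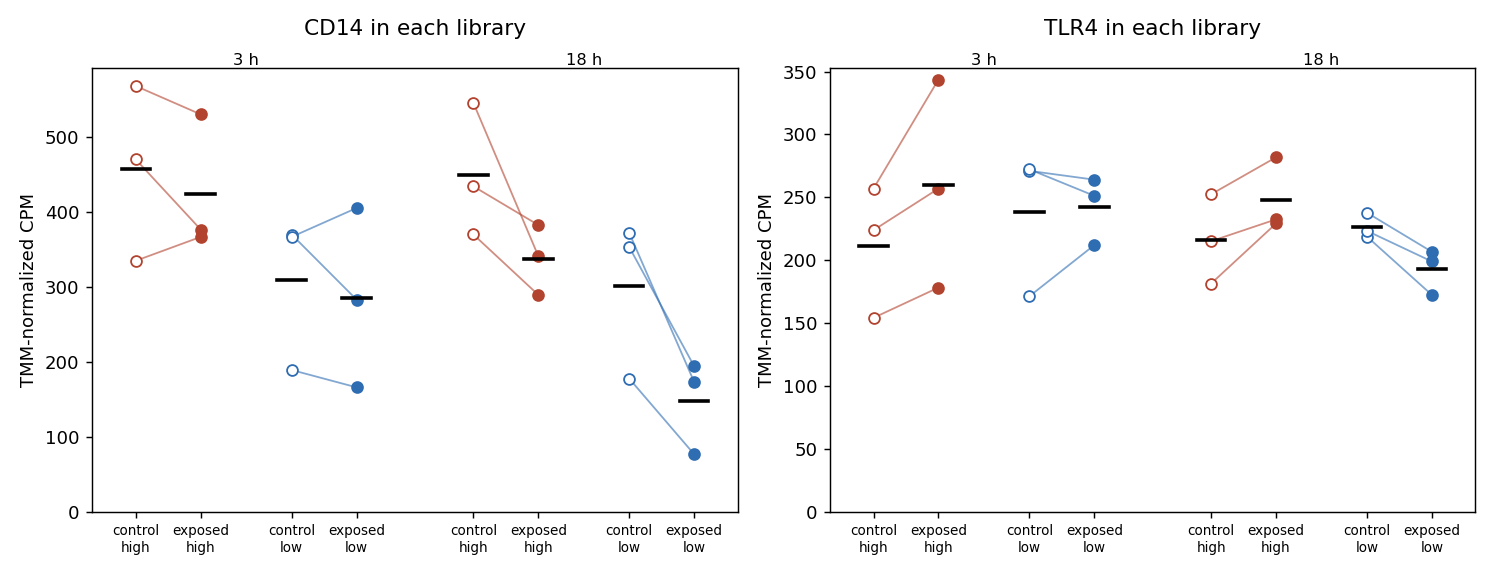
TMM-normalized CPM of CD14 (left) and TLR4 (right) in the 24 libraries, by phenotype (red high, blue low), exposure and time point. Open points are control wells, filled points exposed wells, lines join the wells of 1 cow and black bars are means of 3. The means of the exposed wells of the low responders at 18 hours are the lowest for CD14 (148 CPM) and for TLR4 (193 CPM), while single wells of other conditions lie among or below these wells.

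Ordered by mean CPM (± SD, n = 3 each), CD14 was highest in control wells of the high responders at 3 hours (457 ± 117) and 18 hours (449 ± 88.7) and in their exposed wells at 3 hours (424 ± 91.6). These were followed by the exposed wells of the high responders at 18 hours (337 ± 46.7). Next came the low responders' control wells at 3 hours (308 ± 103) and 18 hours (301 ± 107), their exposed wells at 3 hours (284 ± 119) and, last, their exposed wells at 18 hours (148 ± 62.6). All 4 conditions of the high responders were therefore above the 4 of the low responders. For TLR4, the order began with the exposed wells of the high responders at 3 hours (259.6 ± 82.7) and 18 hours (248 ± 29.5). The low responders' wells followed, exposed at 3 hours (242 ± 27.1), control at 3 hours (238 ± 57.9) and control at 18 hours (227 ± 9.91). The control wells of the high responders at 18 hours (216 ± 35.5) and 3 hours (212 ± 52.5) and the exposed wells of the low responders at 18 hours (193 ± 18.0) closed it. For both genes, the libraries of each condition overlapped with those of the next in this order.

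Part of the spread of CD14 went with the animal. Library codes of the control and exposed wells of a phenotype and time point share a number, and their letters form pairs that recur at both time points. One low responder, with the letters A and B, had 189 and 166 CPM at 3 hours and 178 and 76.7 CPM at 18 hours, the lowest CD14 level in each of the 4 conditions of its phenotype. The other low responders had control wells between 353 and 372 CPM at both time points, close to the high responder with the letters M and N (334 and 369 CPM). TLR4 of the low responder with the letters A and B was also the lowest of its phenotype in each condition. In control wells it was at 171 CPM at 3 hours, against 271 and 272 CPM in the other low responders. At 18 hours it was at 219 CPM, against 223 and 238 CPM. In exposed wells it was at 212 CPM at 3 hours, against 264 and 251 CPM, and at 172 CPM at 18 hours, against 207 and 199 CPM.

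The first comparison asked whether E. coli altered the receptor transcripts within a phenotype. At 18 hours, CD14 fell in both phenotypes, to 0.749-fold of control in the high responders (log2 fold change -0.42, SE 0.11, adjusted p = 0.00819) and to 0.473-fold in the low responders (log2 fold change -1.08, SE 0.11, adjusted p = 4.02e-05). CD14 was lower in the exposed well in 6 of 6 cows. TLR4 fell in the low responders, to 0.835-fold (log2 fold change -0.26, SE 0.08, adjusted p = 0.0277, lower in 3 of 3 cows). TLR4 stood at 0.19 in the high responders (SE 0.08, adjusted p = 0.0752), which did not pass. These adjusted p values, and all others here unless said otherwise, are Benjamini-Hochberg values of edgeR's quasi-likelihood test over all genes tested, with 0.05 as the threshold. Of all 11759 genes, 58.8% passed in the high and 47.6% in the low responders at 18 hours, and 30.7% and 25.2% passed with a lower level, so a pass was common there. By fold change, 10.7% of all genes had a lower value than CD14 in the low responders.

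The fall of CD14 in the high responders rested in part on the cow with code number 94, without which the log2 fold change was -0.28 with an adjusted p of 0.0652. The fall of TLR4 in the low responders did not pass when any 1 of the 3 low responders was left out (log2 fold change between -0.30 and -0.20, adjusted p between 0.0557 and 0.129) or with DESeq2 (adjusted p = 0.0505).

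At 3 hours, neither gene passed in either phenotype, where 34.7% (high) and 21.9% (low) of 11264 genes did. CD14 had log2 fold changes of -0.04 (SE 0.14, adjusted p = 0.836) in the high and -0.13 (SE 0.14, adjusted p = 0.55) in the low responders, with 95% intervals from -0.36 to 0.27 and from -0.45 to 0.19. TLR4 had 0.33 (SE 0.12, adjusted p = 0.0613) in the high and 0.06 (SE 0.12, adjusted p = 0.75) in the low responders. In the high responders TLR4 was higher in the exposed well of 3 of 3 cows, by 0.20 to 0.42 on the log2 scale.

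Direction for TLR4 depended on how libraries were scaled. Scaled by library totals alone, the median of all genes moved by -0.45 (high) and -0.40 (low) at 3 hours and by -0.27 and -0.12 at 18 hours. With that scaling, the log2 fold change of TLR4 on exposure was -0.13 (high) and -0.34 (low) at 3 hours and -0.08 (high) and -0.38 (low) at 18 hours. TPM, which are shares of all transcripts, were lower in the exposed than in the control well in 6 of 6 cows for both genes at 18 hours. At 3 hours TLR4 TPM were lower in 2 of 3 high responders, with the other at 0.16 on the log2 scale, and in 3 of 3 low responders. The TLR4 values above 0 in the high responders at 18 hours thus hold relative to the middle of all genes. In bulk RNA, fewer cells of a kind and less transcript per cell cannot be told apart.

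**Figure D2:**
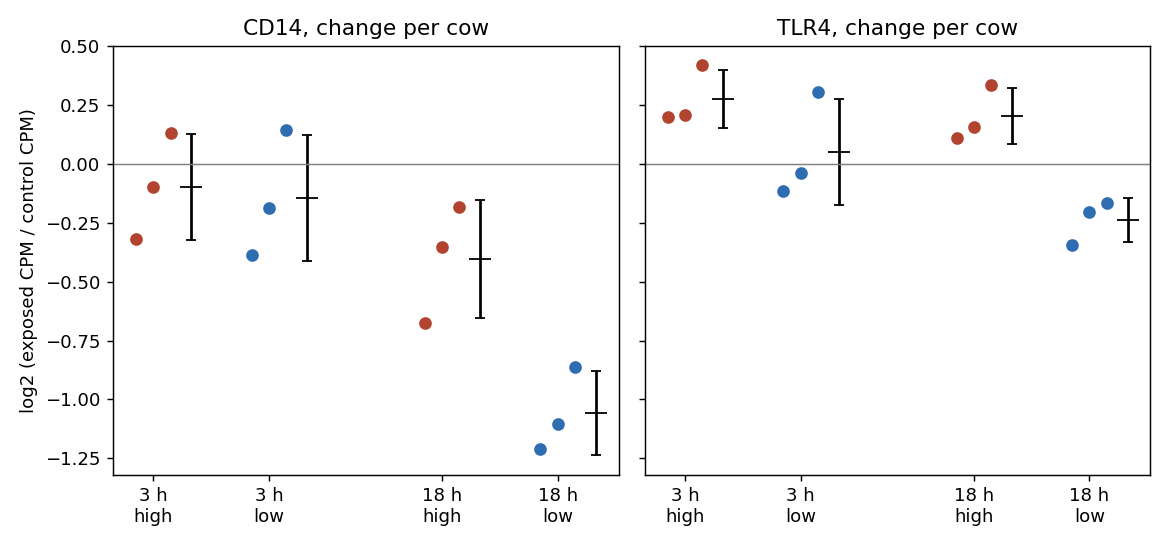
Change per cow on exposure to E. coli, as log2 of exposed over control TMM-normalized CPM, for CD14 (left) and TLR4 (right) at 3 and 18 hours (red high, blue low responders). Points are cows and black marks are the mean ± SD of 3. At 18 hours the points of the phenotypes do not overlap for either gene, and TLR4 lies above 0 in the high and below 0 in the low responders.

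The second comparison, the one the study was built for, asked whether the response to E. coli differed between phenotypes. At 18 hours, log2 of exposed over control CPM per cow was -0.35, -0.18 and -0.68 for CD14 in the high responders and -1.10, -1.21 and -0.86 in the low responders. For TLR4 it was 0.11, 0.34 and 0.16 in the high and -0.20, -0.34 and -0.17 in the low responders. For both genes the cows of the phenotypes did not overlap, with the high responders above, a pattern that 10.8% of 11905 genes showed. For TLR4 every high responder was up and every low responder down, which 0.68% of genes showed.

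Tested across all genes, neither difference at 18 hours passed, where 1.64% of 11759 genes did. The effect of E. coli on CD14 was 0.66 higher on the log2 scale in the high responders (SE 0.16, 95% interval 0.32 to 1.01, adjusted p = 0.0663). For TLR4 it was 0.45 higher (SE 0.12, 95% interval 0.18 to 0.71, adjusted p = 0.0902). By p value, CD14 ranked 307 and TLR4 474 of the genes tested. Both members were named in tables that favour genes with small p values between phenotypes at 18 hours. These ranks, and the shares of genes whose cows did not overlap, therefore describe the members and support nothing. For CD14 the outcome changed with the analysis. Its adjusted p was 0.00582 with DESeq2, the tool that the study used for this contrast. With edgeR it was 0.0276 without a filter on low counts and 0.04 without the high responder with code number 94. It ranged up to 0.239 when other cows were left out. For TLR4 the adjusted p was 0.0564 with DESeq2 and between 0.141 and 0.282 when 1 cow was left out.

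At 3 hours the differences between phenotypes were within their errors, at 0.09 for CD14 (SE 0.20, 95% interval -0.36 to 0.53, adjusted p = 0.88) and 0.27 for TLR4 (SE 0.17, 95% interval -0.12 to 0.65, adjusted p = 0.543). Of 11264 genes, 0.178% passed. Cows of the phenotypes overlapped for both genes.

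Control wells and exposed wells were then compared between phenotypes separately, in fits of 6 libraries. CD14 in the control wells was 0.57 higher on the log2 scale in the high responders at 3 hours (SE 0.31, adjusted p = 0.813) and 0.57 higher at 18 hours (SE 0.28, adjusted p = 0.286). Without the low responder with the letters A and B, these values were 0.30 and 0.30. With the library code number as a replicate block they were 0.11 and 0.30. A number shared between phenotypes does not name the same cow, and not every number occurs in both. Values from this block therefore rest on part of the wells and are no adjustment for pairing. In exposed wells CD14 was 0.61 higher at 3 hours (SE 0.31, adjusted p = 0.437) and 1.19 higher at 18 hours (SE 0.32, 95% interval 0.45 to 1.92, adjusted p = 0.129), which is 2.28-fold. That last value passed with DESeq2 (adjusted p = 0.00332), and without the low responder with the letters A and B the values in exposed wells were 0.32 and 0.88. With the block by code number they were 0.17 and 0.77. TLR4 in the control wells was at -0.18 at 3 hours (between -0.38 and -0.0098 when 1 cow was left out) and -0.08 at 18 hours, and in the exposed wells at 0.13 and 0.36 (SE 0.13, adjusted p = 0.204). No member passed in these 4 comparisons. Of all genes, 0.00906% and 0.15% passed between control wells at 3 and 18 hours, and 0.0839% and 0.0446% between exposed wells.

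**Figure D3:**
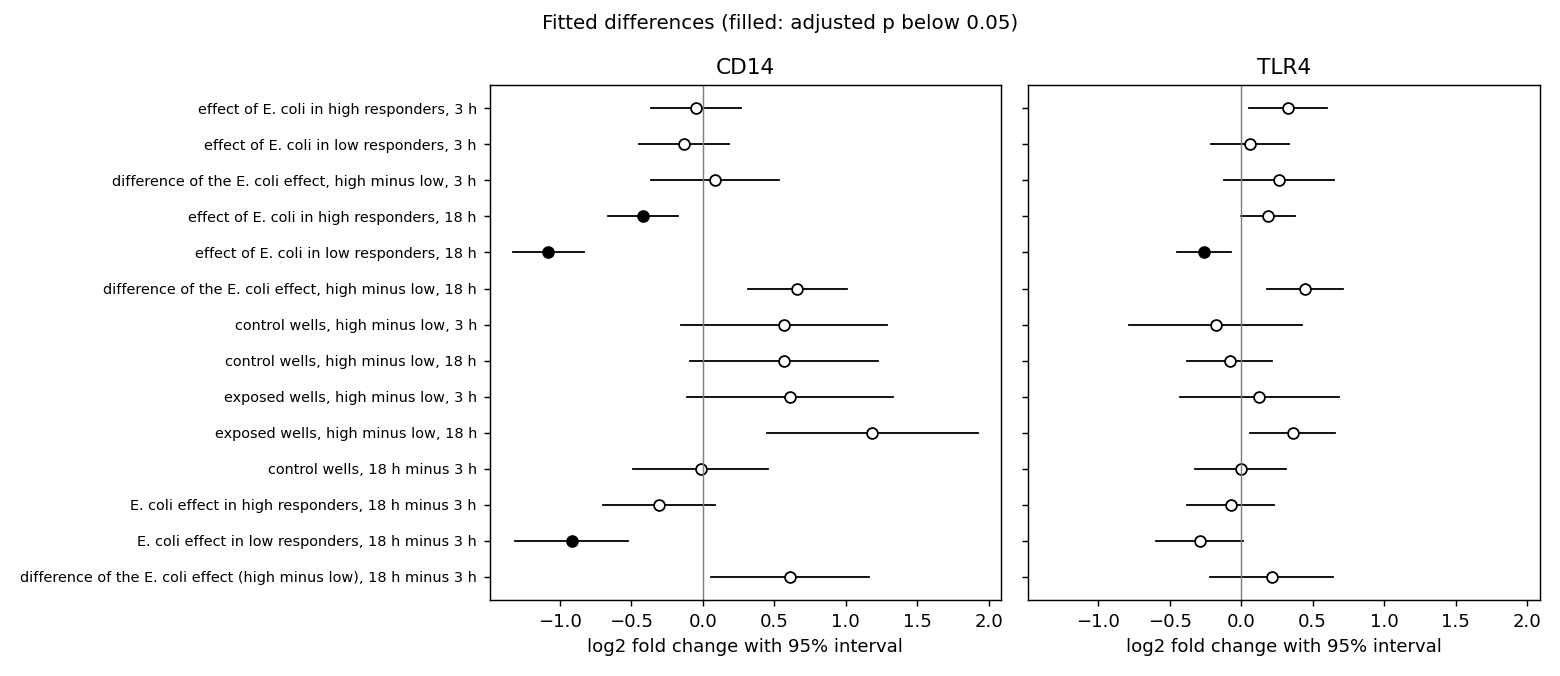
Fitted log2 fold changes with 95% intervals for CD14 (left) and TLR4 (right) in the 14 comparisons, filled where the adjusted p is below 0.05. CD14 is filled in 3 comparisons (both effects at 18 hours and the change of the effect with time in the low responders) and TLR4 in 1 (the effect in the low responders at 18 hours).

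Time in culture was read from the control wells, in a fit with a term for phenotype and none for the cow. Its intervals therefore do not use the pairing of wells by cow. Each plate was given 1 time point, so time in culture cannot be told apart from the plate. Between 3 and 18 hours, control wells differed by -0.01 on the log2 scale for CD14 (95% interval -0.48 to 0.46) and by less than 0.01 for TLR4 (95% interval -0.32 to 0.32), and 0.0259% of 11581 genes passed. The effect of E. coli on CD14 became more negative from 3 to 18 hours in the low responders, by -0.92 (SE 0.18, adjusted p = 0.00362), where 17.9% of 11905 genes passed. In the high responders this change was -0.31 (SE 0.18, adjusted p = 0.22, with 30.8% of genes passing), and between -0.42 and -0.17 when 1 cow was left out at 1 time point. Whether it differed between phenotypes was tested as well, with a value of 0.61 (SE 0.26, adjusted p = 0.465) for CD14 and 0.22 (SE 0.20, adjusted p = 0.762) for TLR4. No gene passed this test with edgeR (1160 of 11905 at an unadjusted p below 0.05), and 33 passed with DESeq2, neither member among them. For TLR4 the effect at 18 hours minus that at 3 hours was -0.07 (high, adjusted p = 0.73) and -0.29 (low, adjusted p = 0.182).

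The ratio of CD14 to TLR4 within a library needs no scaling between libraries. As TPM of CD14 over TPM of TLR4, the control wells at 18 hours had 2.33, 3.24 and 2.92 in the high and 2.12, 1.10 and 2.14 in the low responders. Exposed wells at 18 hours had 1.69, 2.26 and 1.64 in the high and 1.13, 0.603 and 1.32 in the low responders. The ratio was lower in the exposed well in 6 of 6 cows at 18 hours, by -0.71 ± 0.19 on the log2 scale (SD, n = 6, exact two-sided sign-flip permutation test, p = 0.03125, adjusted over the 2 time points 0.0625). That p is the smallest that 6 cows allow. The changes of the high responders, from -0.83 to -0.47, overlapped with those of the low responders, from -0.90 to -0.70. At 3 hours the ratio was lower in 5 of 6 cows, by -0.28 ± 0.28 (SD, n = 6, exact permutation p = 0.0625), and the exception was a low responder at 0.26.

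**Figure D4:**
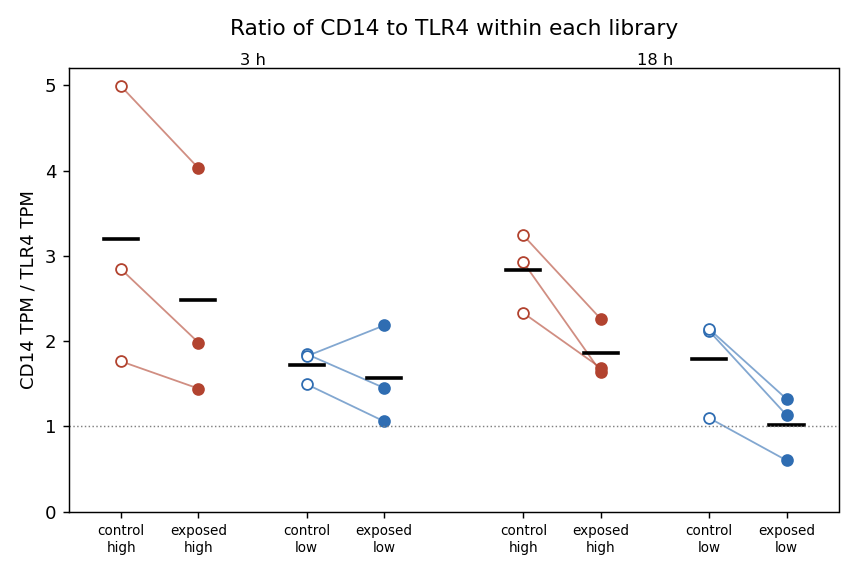
Ratio of CD14 TPM to TLR4 TPM within each of the 24 libraries, by phenotype (red high, blue low), exposure (open control, filled exposed) and time point, with lines joining the wells of 1 cow and bars for means of 3. At 18 hours all 6 lines descend, and the dotted line marks a ratio of 1, which 1 library falls below.

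Other genes of the LPS pathway were taken from a list of 53, of which 19 had an identifier in the name tables and all 19 were tested. Those tables favour genes with small p values between phenotypes at 18 hours, so these 19 are not a neutral part of the list, and LBP, LY96, LY86, TIRAP, TICAM1 and CNPY3 could not be looked up. On exposure, 11 of 19 rose and 2 fell in the high responders at 3 hours, and 10 rose and 2 fell in the low responders, where 34.7% and 21.9% of all genes passed in either direction. With library totals as the scale these counts were 9 and 3 in the high and 7 and 6 in the low responders. At 18 hours, 12 rose and 5 fell in the high and 11 rose and 6 fell in the low responders, where 58.8% and 47.6% of all genes passed and 30.7% and 25.2% passed with a lower level. Of these calls 1, that of MAP3K7 in the high responders at 18 hours, changed its direction with library totals as the scale. The median log2 fold change of the 19 genes was 0.81 (high) and 0.45 (low) at 3 hours and 0.89 and 0.37 at 18 hours, against -0.01, -0.03, -0.04 and 0.00 over all genes. In the low responders at 18 hours 1 of the 19, CD180, was below CD14.

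Among receptors and their partners, TLR2, the receptor for bacterial lipoproteins, rose in both phenotypes at both time points. Its log2 fold change was 0.81 and 0.89 in the high responders and 0.60 and 0.37 in the low responders at 3 and 18 hours, and the rise in the low responders at 3 hours did not pass with library totals as the scale (0.20, adjusted p = 0.145). CD180, a relative of TLR4 that pairs with LY86 and restrains LPS signalling in several cell types, fell in each case. Its log2 fold changes at 3 and 18 hours were -1.45 and -1.07 in the high and -1.66 and -2.11 in the low responders. CASP4, which binds LPS in the cytosol, and AOAH, which removes acyl chains from LPS, both rose at 18 hours, CASP4 by 1.59 (high) and 0.96 (low) and AOAH by 3.99 and 2.52. ITGB2, the beta chain of complement receptor 3, fell at 18 hours, with -0.32 and -0.64.

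The adaptors moved in opposite directions. MYD88, used by most toll-like receptors, fell in every case, with log2 fold changes of -0.66 and -0.71 (high and low) at 3 hours and -0.96 and -0.72 at 18 hours. TICAM2, which links TLR4 to TICAM1, rose by 0.79 and 0.45 at 3 hours and by 1.14 and 0.55 at 18 hours. Its rise in the low responders at 3 hours (adjusted p = 0.0477) did not pass with DESeq2 (adjusted p = 0.0557), and neither rise at 3 hours passed with library totals as the scale (0.33 high, 0.05 low). Of 5 kinases and ligases tested, IRAK2, TAB2 and TBK1 rose in all 4 cases. IKBKE fell in the low responders at 18 hours (-0.71, adjusted p = 0.000446) and did not pass in the other cases. MAP3K7 passed only in the high responders at 18 hours (0.24, adjusted p = 0.0444), and not with DESeq2 (adjusted p = 0.0807). All 3 inhibitors, IRAK3, TNFAIP3 and TNIP1, rose as well, with TNFAIP3, a deubiquitinase that limits NF-kB signalling, at 4.93 and 3.96 at 3 hours and 3.31 and 2.73 at 18 hours. HSP90B1, the chaperone that folds toll-like receptors, fell by 0.75 in the high responders at 18 hours and was at -0.14 (adjusted p = 0.336) in the low responders. UNC93B1, which carries endosomal toll-like receptors to their compartment, fell by 0.40 in the low responders at 18 hours and was at -0.17 (adjusted p = 0.242) in the high responders. Neither difference between phenotypes passed with edgeR (HSP90B1 -0.60, adjusted p = 0.101, and UNC93B1 0.24, adjusted p = 0.508), while that of HSP90B1 passed with DESeq2 (-0.58, adjusted p = 0.0318). PLCG2, listed for trafficking, fell in both phenotypes at 18 hours, with log2 fold changes of -0.81 (high) and -0.73 (low), and did not pass at 3 hours.

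**Figure D5:**
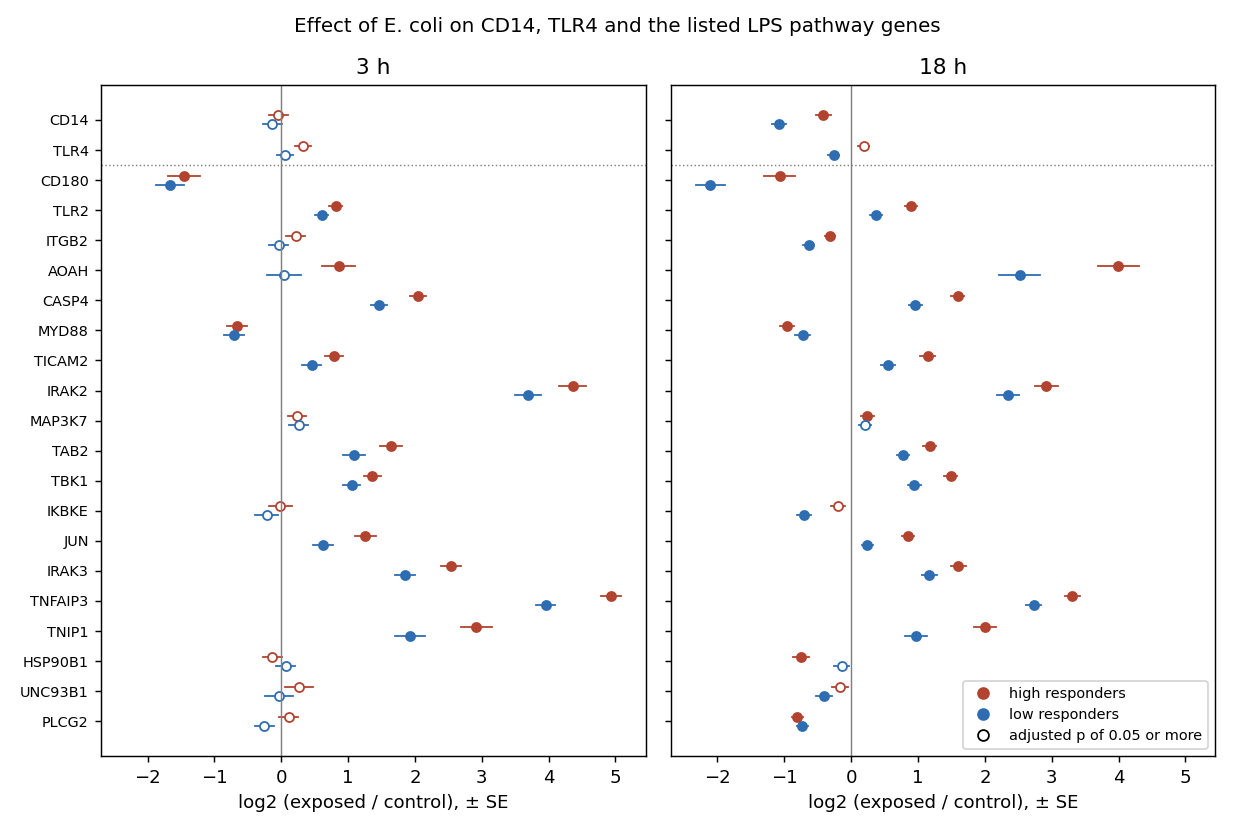
Effect of E. coli as log2 fold change ± SE for CD14 and TLR4 (above the dotted line) and 19 LPS pathway genes, at 3 hours (left) and 18 hours (right), in high (red) and low (blue) responders, filled where the adjusted p is below 0.05. TLR4 lies near 0 throughout and CD14 falls at 18 hours, while TNFAIP3, IRAK2 and, at 18 hours, AOAH are above 2 in both phenotypes. TNIP1, IRAK3 and CASP4 are above 2 in the high responders at 3 hours only, and CD180 is at -2.11 in the low responders at 18 hours.

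Between phenotypes, counts over the 19 genes describe these genes and support nothing, since having a name went with a small p value in this same comparison at 18 hours. None of the 19 passed at 3 hours with edgeR (8 at an unadjusted p below 0.05, as 12.7% of all genes, and 1, TNFAIP3, with DESeq2). At 18 hours JUN, a subunit of the transcription factor AP-1, passed with 0.61 (SE 0.13, adjusted p = 0.0482), and 15 genes had an unadjusted p below 0.05, as 17.6% of all genes. With library totals as the scale none passed (JUN at 0.46, adjusted p = 0.0877), and DESeq2 passed 6 genes at 18 hours. TLR2 was at 0.52 (SE 0.13, adjusted p = 0.0746) and CD180 at 1.04 (SE 0.32, adjusted p = 0.138) at 18 hours.

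Macrophage markers moved with exposure at 18 hours beside CD14. MSR1, a scavenger receptor, fell, with log2 fold changes of -4.22 (high) and -3.29 (low), as did AIF1 with -0.65 and -1.25, whereas CD68, a lysosomal protein, rose by 0.62 and 0.60. FCER1G, the signalling chain of Fc receptors, fell by 0.63 in the low responders and was at -0.02 (adjusted p = 0.883) in the high responders, a difference of 0.62 that passed (adjusted p = 0.0464). CSF2RA, the receptor chain for GM-CSF, also differed between phenotypes at 18 hours, by 1.02 (adjusted p = 0.0489). With library totals as the scale neither difference passed (FCER1G 0.47, adjusted p = 0.0879, and CSF2RA 0.87, adjusted p = 0.0691). MSR1 (-0.93, adjusted p = 0.0883) and CD79A (-0.70, adjusted p = 0.641) were below 0 in this comparison. Of all 11759 genes 1.64% passed it. The markers were named in tables that favour small p values between phenotypes at 18 hours, so passes among them support nothing. The summed TPM of the 5 macrophage markers in exposed wells at 18 hours ranged from 4282 to 4724 in the high and from 3381 to 4207 in the low responders, and in control wells from 4954 to 5867 and from 3979 to 4895. Of the markers of other cells, PRF1 rose at 18 hours by 2.14 (high, adjusted p = 0.00057) and 1.88 (low, adjusted p = 0.00398). The summed TPM of CD79A and PRF1 ranged from 2.76 to 3.51 and from 2.02 to 3.13 in exposed wells, and from 0.89 to 2.89 and from 0.90 to 1.75 in control wells. Their part in the values of CD14 was not tested.

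Over the 24 libraries, log2 CPM of CD14 and TLR4 correlated with Pearson's r = 0.25, a rank of 2939 from the top among 11904 other genes for likeness to CD14. These libraries come from 6 cows and share exposures and time points, so the values describe the libraries only. The gene most like CD14 was LRRC25, a leucine-rich repeat protein of myeloid cells (r = 0.943, 18.9 to 301 CPM), followed by ENSBTAG00000020645 (r = 0.935) and ENSBTAG00000014821 (r = 0.90), which have no symbol in the tables used, as do the 2 next at 0.894 and 0.892. The least like CD14 were 3 genes without a symbol, with r between -0.88 and -0.873. Most like TLR4 were FMNL2, a formin that builds actin filaments (r = 0.85), ENSBTAG00000021091 (r = 0.81), UPF2 of nonsense-mediated decay (r = 0.81), DNAJC13 of endosomes (r = 0.79) and ENSBTAG00000011790 (r = 0.79). CPSF4, a subunit of the polyadenylation complex, was among the 3 least like TLR4 (r = -0.83, at 5.37 to 17.0 CPM), beside ENSBTAG00000015859 (r = -0.83) and ENSBTAG00000014607 (r = -0.81). After the mean of each condition was removed, r was 0.87 for LRRC25 with CD14 and 0.84 for FMNL2 with TLR4, and 0.17 for the members with each other.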

How the data were processed

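mRNA of 24 MDM cultures was sequenced from stranded libraries. Per the labels and the study's methods, the authors trimmed read pairs with Trimmomatic, checked them with FastQC 0.11.5, mapped them with STAR 2.7.0a to the bovine genome UMD 3.1 (Ensembl release 94) and estimated genes with RSEM 1.3. The deposited tables hold expected counts (estimated counts, not normalized), effective lengths and TPM as the authors made them, 1 table per library. No replicate was pooled. Symbols came from the identifier and name columns of the study's supplementary tables, which in the copies used name 2808 of 24616 genes. Those tables also hold the authors' own fold changes and p values, which were not used. No sequences or coordinates of this build were used.

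Expected counts were rounded and fitted in R 4.3.3 with edgeR 4.0.16 (TMM, its default filter on low counts by condition, quasi-likelihood test). Effects of E. coli were fitted per time point with a term for each cow, phenotypes in fits of 6 wells of 1 exposure and time point, control wells over time in 12 libraries and changes with time in all 24. SEs follow from the log2 fold change and its F statistic. CPM are TMM values over all 24 libraries, and CPM on the log2 scale used a prior count of 2. The changes per cow of the members are log2 ratios of CPM without a prior count. The shares of genes given beside them used the prior count. The CD14 to TLR4 ratio was tested over 6 cows with an exact sign-flip permutation test. Each condition has 1 well of each of 3 cows, so p values measure the spread between these wells. Every library had at least 1147 counts of CD14 and 1369 of TLR4.

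Control and exposed wells were paired by the number of the library code, which the labels do not explain in words. Deviations of log2 CPM from the condition mean gave r from 0.327 to 0.732 for the 12 pairs that share a number, and r from -0.568 to 0.00521 for 24 pairs that do not. Across time points, wells with the same letter pair correlated between 0.299 and 0.682 (12 pairs) and others between -0.502 and -0.00518 (24 pairs).

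The members, gene lists and tests were chosen with earlier results of these data known. Genes are named when they are members, receptor partners, adaptors, chaperones or TLR2, when a listed gene passes the difference between phenotypes, and, for likeness, as the 5 highest and 3 lowest in Pearson's r. AOAH, CASP4, ITGB2, IRAK2, IRAK3, TAB2, TBK1, IKBKE, MAP3K7, PLCG2, TNFAIP3, TNIP1, MSR1, AIF1 and CD68 were named after their values were seen. Of the other toll-like receptors, 9 listed, TLR2 and TLR5 had an identifier, and TLR5 had at most 6 counts and was not tested. Alternatives were other size factors, library totals, no filter, DESeq2 1.42.0, offsets for effective length, other thresholds, other terms for the cow or library code and leaving out each cow. In comparisons over time, a cow was left out at 1 time point only. The fits were also run on simulated counts with the same spread for all genes and no differences between cows. That run therefore cannot check the terms for the cow or the spread between animals. No library was left out.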

Additional observations from a re-analysis of the deposited data

Results flagged for a closer look

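The effect of E. coli on CD14 in the low responders differed between the time points by a test of the difference, by -0.92 on the log2 scale (edgeR, adjusted p = 0.00362). It was 0.914-fold of control at 3 hours and 0.473-fold at 18 hours. The difference passed in all 12 fits that left out 1 cow at 1 time point. Each of these fits kept that cow's wells at the other time point, so none left out an animal entirely. The difference did not pass without the replicate block for the cow. Of all 11905 genes, 17.9% passed this test.

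TLR4 at 18 hours moved in opposite directions, up in each of the 3 high responders and down in each of the 3 low responders, with a fitted difference of 0.45 that did not pass over all genes (edgeR, adjusted p = 0.0902). With library totals as the scale, the difference was 0.30 (adjusted p = 0.171) and both phenotypes were below 0.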

How the results depend on the processing

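Of 262 values under alternatives other than leaving out a cow, 233 kept direction and side of the threshold. With library totals as the scale, CD14 passed at 3 hours in both phenotypes (-0.50 high, -0.53 low). That scaling turned the direction of the TLR4 effect at 3 hours (-0.13 high, -0.34 low), of the TLR4 effect in the high responders at 18 hours (-0.080) and of its change with time (0.051), and of control wells over time (0.053 for CD14 and 0.055 for TLR4). The last value of TLR4 also turned with RLE size factors (0.0020), DESeq2 (0.0020) and a replicate block by code letter (0.021). A replicate block by code number turned TLR4 between control wells at 18 hours (0.0021). Within a phenotype and time point, the numbers pair control and exposed wells (see the correlations given with the processing). Between phenotypes a shared number does not name the same cow. Without the replicate block for the cow 3 calls were lost. These were CD14 at 18 hours in the high responders (-0.43) and TLR4 at 18 hours in the low responders (-0.26). Also lost was the change of the CD14 effect with time in the low responders (-0.91). In 1 fit of all 24 libraries with the replicate block, TLR4 passed in the high responders at 3 hours (0.28) and not in the low responders at 18 hours (-0.24). A minimum fold of 1.5 removed CD14 in the high responders (-0.42) and TLR4 in the low responders (-0.26) at 18 hours. An adjusted p below 0.1 admitted both differences at 18 hours (0.66 for CD14, 0.45 for TLR4) and TLR4 in the high responders at 3 hours (0.33) and 18 hours (0.19). The CD14 difference at 18 hours passed with no filter (0.67) and DESeq2 (0.69), CD14 between exposed wells at 18 hours passed with DESeq2 (1.2), and TLR4 in the low responders at 18 hours did not (-0.26). For the pathway list, DESeq2 passed 1 gene at 3 hours and 6 at 18 hours in the difference between phenotypes. The causes were not tested.

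Leaving out 1 cow gave, for CD14, -0.16 to 0.085 (high, 3 hours), -0.035 to 0.23 (difference, 3 hours), -0.51 to -0.28 (high, 18 hours), 0.57 to 0.80 (difference, 18 hours) and -0.13 to 0.11 (control wells over time). For TLR4 it gave 0.25 to 0.38 (high, 3 hours), -0.061 to 0.15 (low, 3 hours), -0.30 to -0.20 (low, 18 hours), -0.21 to 0.029 (control wells between phenotypes, 18 hours), -0.14 to 0.32 (exposed wells, 3 hours) and -0.079 to 0.057 (control wells over time). In comparisons over time, a cow was left out at 1 time point only, and its wells at the other time point stayed in. The ratio of CD14 to TLR4 stayed below 0 throughout, and 204 of 228 such values kept direction and side. Every library had at least 1147 counts of CD14 and 1369 of TLR4, and each phenotype 3 cows.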
